A study of Mus musculus with 9 samples.

Results

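The 46 genes described here are a set of mitosis and spindle genes, taken by symbol from a deposited expression table of 46517 genes of the mouse. All 46 were found in that table. They were sorted into 10 roles: the proliferation antigen and topoisomerase, mitotic entry, aurora kinases and survivin, the spindle checkpoint, centromere and kinetochore, kinesin motors, spindle assembly factors, anaphase and its ubiquitin ligase, condensin, and cytokinesis. The table covers 9 bulk RNA libraries of C57BL/6 mice older than 18 months: 3 wild-type spleens (1, 4 and 5), 4 plckGAPDH spleens and 2 plckGAPDH lymph nodes (455 and 508). plckGAPDH mice carry a Gapdh transgene driven by the Lck promoter, which is active in T lineage cells, and per the labels those used here were developing tumours. No wild-type lymph node was analysed here. The plckGAPDH spleens were 343, 508, 547 and 1 whose column gives no animal number, called the unnumbered spleen. Spleen 331 of the labels has no column that names it, so it was not settled whether the 4 plckGAPDH spleens came from 4 animals, and p-values measure the spread between these libraries. Animal 508 gave both a spleen and a lymph node.

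A cell that enters mitosis activates the kinase Cdk1 through B-type cyclins, condenses its chromosomes, and builds a spindle of microtubules that kinesin motors shape and that attaches to chromosomes at kinetochores. The spindle checkpoint holds the ubiquitin ligase APC/C inactive until every kinetochore is attached. APC/C with its partner Cdc20 then marks securin and cyclin B for destruction, separase cuts the cohesin rings that hold sister chromatids, and the cell divides. Most of these genes are transcribed mainly in the later part of the cell cycle, so in lymphoid tissue their RNA is used as a measure of how many cells are dividing. In these bulk samples, more dividing cells and more RNA per dividing cell cannot be told apart.

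The genes are also known to share promoter elements: CCAAT boxes bound by the factor NF-Y, and the cell cycle genes homology region (CHR), which is bound by the DREAM repressor in resting cells. Of the 46 genes, 39 had an entry in the RefSeq promoter table of build GRCm38.p6, which holds 250 bases before and 50 bases after each start. Only the first listed start of each gene was used, so other starts were not read. The letters CCAAT, or ATTGG for the other strand, stood in 28 of 39 windows, or 71.8%, against 37.9% of all 27025 promoters of the same length. At least 2 such boxes stood in 46.2% of the windows, against 12.2%. The core letters of the CHR are TTTGAA, which read TTCAAA on the other strand, or the palindrome TTCGAA. They stood in 30 of 39 windows, or 76.9%, against 19.4% of all promoters. Both kinds of match occurred together in 66.7% of the windows, against 7.70%. In the 250 bases before the start alone, the CHR letters stood in 14 of 39 stretches, or 35.9%, against 17.4%, and both kinds in 30.8%, against 6.21%. No match of one kind shared a base with the other kind in these genes. The windows of the 39 genes had a mean GC content of 58.6%, against 53.6% over all windows. A match of letters is a description and not a binding site.

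These 5 sequences show both kinds of match, each being the 250 bases before the RefSeq start on GRCm38.p6. They belong to Cdk1 (chr10:69352913-69353162, minus strand), Ccnb2 (chr9:70421555-70421804, minus strand), Mki67 (chr7:135716380-135716629, minus strand), Top2a (chr11:99024190-99024439, minus strand) and Cdc20 (chr4:118437344-118437593, minus strand). They were picked because each holds both kinds of match before the start and because the genes stand for entry, proliferation, chromosome structure and exit. They are not typical of the set, since 12 of 39 genes hold both kinds in this stretch. Capitals mark the CCAAT boxes and the CHR letters on either strand.
Cdk1: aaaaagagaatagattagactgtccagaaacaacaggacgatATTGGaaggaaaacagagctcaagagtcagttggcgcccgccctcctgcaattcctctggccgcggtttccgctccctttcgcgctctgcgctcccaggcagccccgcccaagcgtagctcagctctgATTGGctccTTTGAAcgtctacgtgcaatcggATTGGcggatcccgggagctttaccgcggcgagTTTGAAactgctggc
Ccnb2: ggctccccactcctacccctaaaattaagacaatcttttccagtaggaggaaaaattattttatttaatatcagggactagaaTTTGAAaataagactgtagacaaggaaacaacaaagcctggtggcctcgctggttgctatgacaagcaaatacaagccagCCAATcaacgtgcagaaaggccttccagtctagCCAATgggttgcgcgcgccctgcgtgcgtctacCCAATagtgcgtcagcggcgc
Mki67: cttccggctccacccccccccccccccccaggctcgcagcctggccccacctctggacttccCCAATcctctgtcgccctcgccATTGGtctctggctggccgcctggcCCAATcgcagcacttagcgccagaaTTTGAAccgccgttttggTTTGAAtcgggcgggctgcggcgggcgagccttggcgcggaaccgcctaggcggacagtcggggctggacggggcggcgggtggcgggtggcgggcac
Top2a: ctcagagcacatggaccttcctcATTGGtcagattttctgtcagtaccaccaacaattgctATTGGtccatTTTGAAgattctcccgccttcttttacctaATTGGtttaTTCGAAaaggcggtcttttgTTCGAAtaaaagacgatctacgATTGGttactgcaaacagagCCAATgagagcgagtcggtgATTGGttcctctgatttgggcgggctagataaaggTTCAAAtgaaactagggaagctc
Cdc20: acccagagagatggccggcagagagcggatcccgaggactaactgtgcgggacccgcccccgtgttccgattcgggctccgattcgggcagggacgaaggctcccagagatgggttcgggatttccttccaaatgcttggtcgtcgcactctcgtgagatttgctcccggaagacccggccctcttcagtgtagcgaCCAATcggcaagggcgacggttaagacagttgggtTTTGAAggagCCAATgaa
Cdk1 held 3 CCAAT boxes and 2 CHR matches in this stretch, with 1 of the latter 15 bases before the start. Ccnb2 held 3 boxes whose first bases lay 87, 54 and 21 bases before the start. Top2a held 6 boxes and 4 CHR matches, the most of the 5. Pttg1 held neither kind of match in its 300-base window, and the other genes with neither were Birc5, Mad2l1, Melk, Ncaph, Nuf2 and Nusap1. The Pttg1 start used lay inside the gene. Its 250 bases (chr11:43425982-43426231, minus strand) end short of the annotated 5' end at 43426251, so sequence before that end was not read. The stretches read for Kif2c and Kif4 also lay inside their genes.

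Levels are FPKM, fragments divided by gene length and by the library's counted fragments, as the authors deposited them. Depth was estimated at 23800000 to 34500000 fragments per library, so that 1 FPKM of a gene with 2000 countable bases rested on 47.5 to 68.9 fragments. An FPKM is relative to all other RNA of its library, and mitochondrial ribosomal RNA held 9.68% (plckGAPDH spleen 508) to 39.3% (wild-type spleen 4) of the summed FPKM. Wild-type spleen 5 stood apart from the rest. It held 33216 FPKM of the globin gene Hbb-bs, against 0.170 to 808 in the other 8 libraries, and it alone held RNA of the Y-linked gene Eif2s3y (30.5 FPKM, against 0) with Xist at 0.0900 FPKM, against 31.1 to 59.7. All 8 pan-B markers and all 8 T cell markers examined were above 0 in all 9 libraries. In what follows, wild-type spleens are given in the order 1, 4 and 5, and plckGAPDH spleens in the order 343, 508, 547 and unnumbered.

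As a group the mitotic genes lay higher in plckGAPDH than in wild-type spleens, but no single gene passed the test. Their summed level was 261, 337 and 286 FPKM in the wild-type spleens and 343, 462, 1508 and 1024 FPKM in the plckGAPDH spleens. The difference on the log2(FPKM + 1) scale, which understates the fold of low genes, was positive for 44 of 46 genes (51.6% of all 12607 genes tested) and negative for Pttg1 and Smc4. Its median was 1.32 over the 46 genes, with a range of -0.57 to 2.07, beside a median of 0.02 over all genes. At a false discovery rate (FDR) under 0.05 in limma, 0 of 46 were called higher, with 0.206% of all genes called higher, and 0 were called lower, with 1.23% of all genes called lower. The lowest FDR of a member was 0.166, for Mki67. An unadjusted limma p under 0.05 with a higher level in plckGAPDH spleens was found for 37 of 46 genes, against 4.18% of all genes, and with a lower level for 0. These genes vary together from library to library, so 37 is not a count of independent results. Without a model, for 20 of 46 genes every plckGAPDH spleen lay above every wild-type spleen, against 3.39% of all genes, and for 0 every one lay below, against 3.88%. All 46 passed the filter of 1 FPKM in 3 spleens. Cdc25c and Espl1 reached 1 FPKM in no wild-type spleen, so they passed through the plckGAPDH spleens alone.

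**Figure D1:**
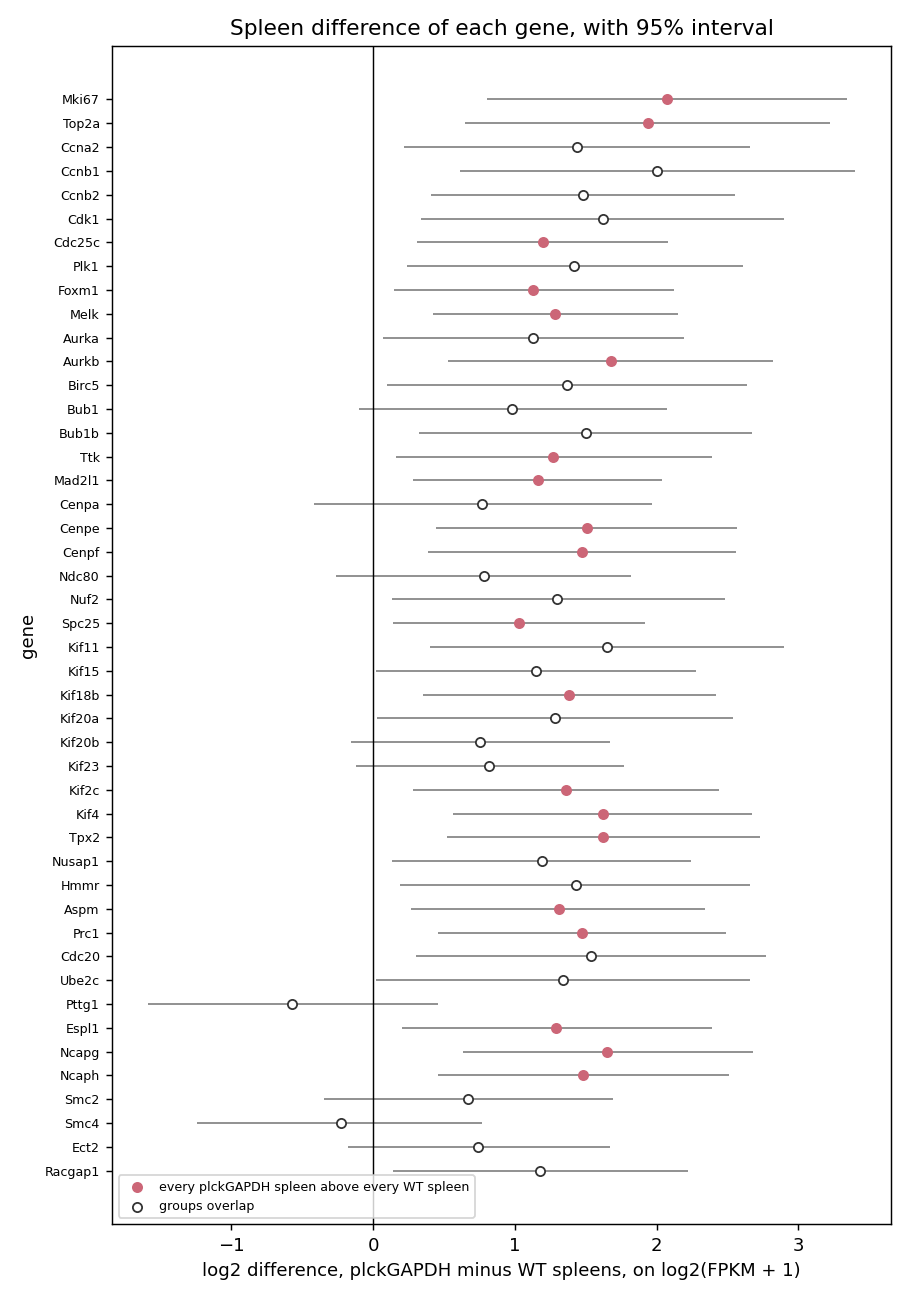
Difference between plckGAPDH and wild-type spleens for each of the 46 genes, on the log2(FPKM + 1) scale, with the 95% interval of the limma fit as a line. Filled points mark the 20 genes whose plckGAPDH spleens all lay above every wild-type spleen. Intervals of 37 genes lie above 0, and the points of Pttg1 and Smc4 lie below 0.

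The difference depended on which library it was read from. In spleen 547, 45 of 46 genes lay above every wild-type spleen, where 45.8% of all genes did. In the unnumbered spleen it was 44 of 46, where 33.4% of all genes did. Spleen 508 had 35 of 46 above every wild-type spleen (all genes 14.1%), and spleen 343 had 22 of 46 (all genes 16.4%). Spleen 547 had a median fold of 6.50 over the wild-type mean and the unnumbered spleen one of 4.78, while spleens 508 and 343 had 1.90 and 1.29. The wild-type spleens themselves lay at medians of 0.872, 1.28 and 0.830 of their mean, so spleen 343 had nearly the median of wild-type spleen 4. Spleen 547 was the highest of all 9 libraries for 42 genes, the unnumbered spleen for 3 and wild-type spleen 5 for Pttg1. Both spleen 547 and the unnumbered spleen lay above both spleens 343 and 508 for 45 of 46 genes, against 48.1% of all genes, and both lay above every wild-type spleen for 44 of 46, against 24.6%. The order 547, unnumbered, 508, 343 from high to low held for 35 genes, and the order 547, unnumbered, 343, 508 for 7.

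Rescaling the libraries changed the counts of spleens 508 and 343 more than those of the other 2 plckGAPDH spleens. The count above every wild-type spleen in spleen 547 was 44, 43 and 43 when the libraries were scaled by median-of-ratios factors, to the FPKM outside mitochondrial, immunoglobulin and globin genes, or to protein-coding genes, beside 39.7%, 41.8% and 30.8% of all genes. The unnumbered spleen had 44, 43 and 44 of 46, beside 30.3%, 31.4% and 28.5% of all genes. Spleen 508 had 41, 0 and 34 of 46, beside 36.1%, 3.80% and 20.9%. Spleen 343 had 10, 10 and 22 of 46, beside 23.4%, 36.7% and 42.9%, so under each of these scalings its count was near or below the share of all genes. The sum used by the second scaling includes the 7SL RNA Rn7s1, which held 540720 FPKM in spleen 508 and 88550 to 283094 FPKM in every other spleen, and its part in these counts was not tested. The count of 20 genes without overlap between the genotypes became 10, 0 and 17 under the 3 scalings, beside 6.11%, 1.15% and 6.06% of all genes. Without spleen 343 it was 35 (all genes 8.04%), and without wild-type spleen 4 it was 33 (all genes 4.52%). Leaving out wild-type spleen 5 gave 23 (all genes 7.47%). In that fit the median log2 difference was 1.23, beside 0.15 over all genes. The lowest limma FDR of a member was then 0.639, in place of 0.166. With both spleen 547 and the unnumbered spleen left out, the median log2 difference was 0.52 in place of 1.32, beside -0.23 over all genes, and 21 genes were without overlap (all genes 4.57%).

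**Figure D2:**
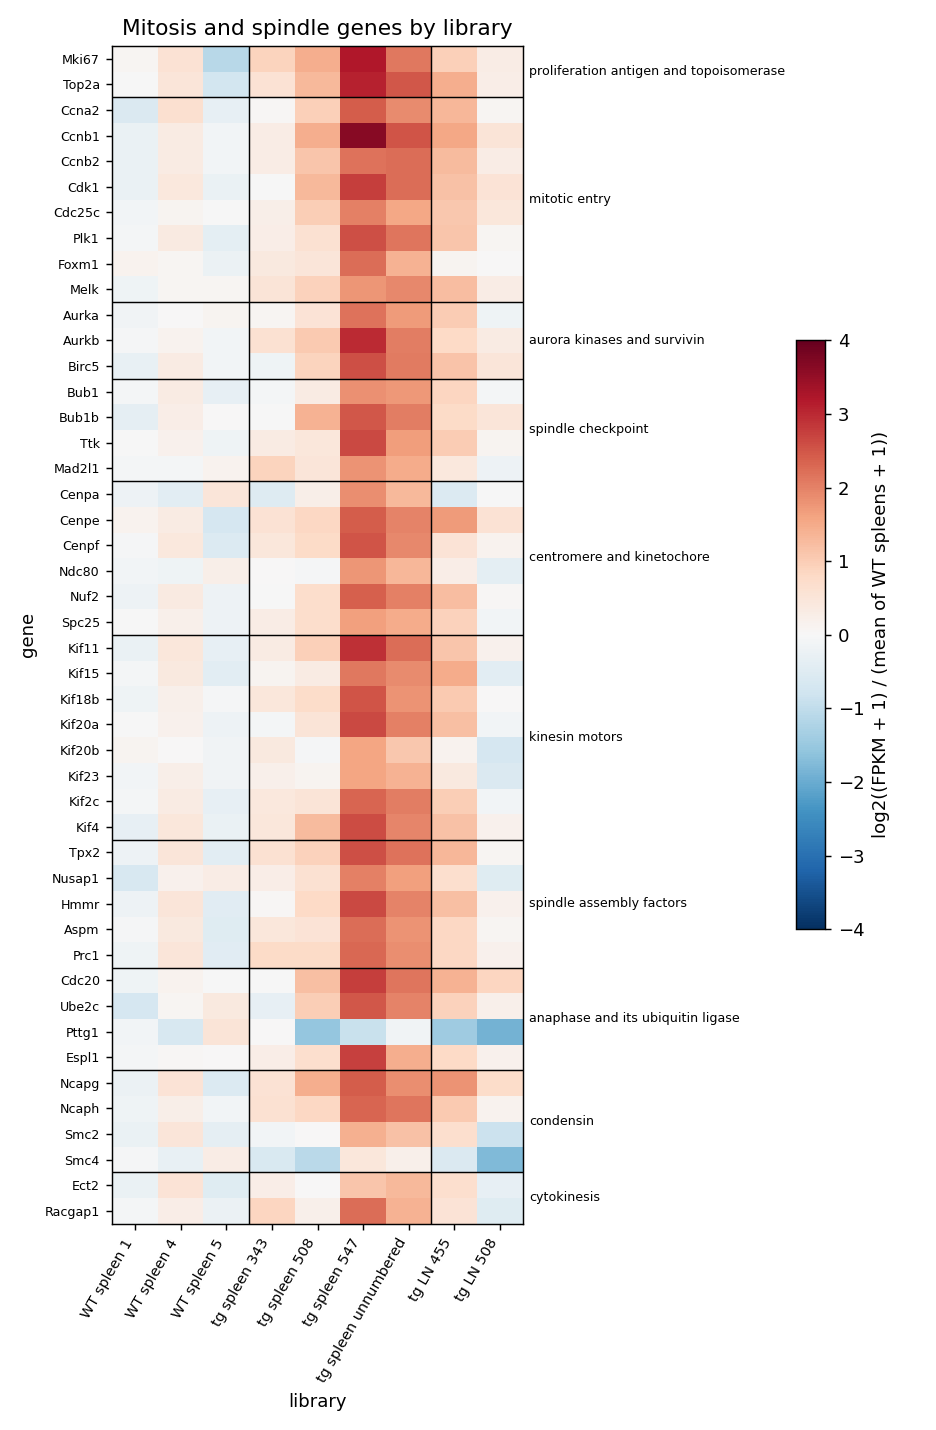
Level of each of the 46 genes (rows, by role) in each of the 9 libraries (columns), as log2 of (FPKM + 1) over (the mean of the 3 wild-type spleens + 1). tg is plckGAPDH and LN is lymph node. Spleen 547 and the unnumbered spleen are red for nearly every gene. The row of Pttg1 is blue in spleen 508 and in both lymph nodes.

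**Figure D3:**
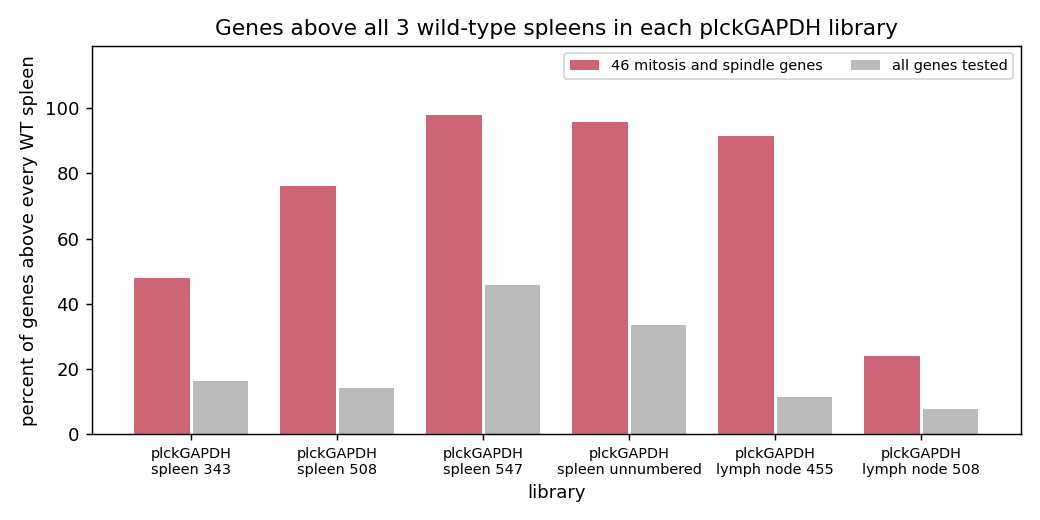
Percent of the 46 genes and percent of all 12607 genes tested that lay above all 3 wild-type spleens, for each plckGAPDH library. With FPKM as deposited, the 46 genes exceed the share of all genes in each of the 6 libraries, with 45 of 46 in spleen 547 and 11 of 46 in lymph node 508. Under other scalings spleens 343 and 508 and lymph node 508 can fall below that share.

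Mki67, which encodes the Ki-67 antigen of dividing cells, and Top2a, the topoisomerase that untangles chromosomes, were, with Smc4, the most abundant genes of the set. Mki67 measured 15.8, 22.8 and 6.37 FPKM in the wild-type spleens and 28.6, 42.5, 146 and 68.2 FPKM in the plckGAPDH spleens. The groups did not overlap, with means of 15.0 ± 8.25 (SD, n = 3) and 71.4 ± 52.6 FPKM (SD, n = 4). The Mki67 difference was 2.07 (SE 0.58) on the log2 scale, the largest of the 46, with a limma FDR of 0.166. Top2a measured 20.1, 28.7 and 11.9 FPKM in wild-type and 30.8, 50.7, 179 and 117 FPKM in plckGAPDH spleens, again with no overlap. Its difference was 1.94 (SE 0.59, limma FDR 0.216). For both genes wild-type spleen 5 was the lowest library and spleen 547 the highest.

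All 8 genes of mitotic entry lay higher, with an unadjusted p under 0.05 for each and a median log2 difference of 1.43, and 3 of them had no overlap. For this role and those below, the shares of all genes stay those given above. They are 51.6% positive, 4.18% higher with an unadjusted limma p under 0.05, and 3.39% without overlap and higher. Cdk1, the kinase that drives entry, stood at 7.01, 12.1 and 7.02 FPKM in the wild-type spleens and at 8.70, 22.9, 65.5 and 44.8 FPKM in the plckGAPDH spleens. Spleen 343 lay among the wild-type values. The Cdk1 difference was 1.62 (SE 0.59, limma FDR 0.366). Ccnb1, one of its cyclins, had the largest single fold of the set: spleen 547 was 15.3 times the wild-type mean, at 64.4 FPKM against 3.33, 5.50 and 3.78. Ccnb2, the other B-type cyclin, ran from 4.51 to 7.27 FPKM in wild-type and from 7.25 to 30.6 FPKM in plckGAPDH spleens, and some reads may be shared with the processed copy Ccnb2-ps, listed at 0.550 to 2.81 FPKM.

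Melk, a kinase whose RNA follows proliferation, measured 1.09, 1.46 and 1.44 FPKM in wild-type and 2.33, 3.39, 6.96 and 7.79 FPKM in plckGAPDH spleens. It was 1 of 3 genes with its highest level in the unnumbered spleen, beside Ccnb2 and Ect2. The groups did not overlap, and the difference was 1.28 (SE 0.40, limma FDR 0.231). Cdc25c, a phosphatase that activates Cdk1, stood at 0.430, 0.680 and 0.540 FPKM in wild-type and 0.840, 2.04, 5.20 and 3.54 FPKM in plckGAPDH spleens. Its groups did not overlap either, with a difference of 1.20 (SE 0.41, limma FDR 0.302). The other 3 genes of entry, Ccna2, Plk1 and Foxm1, had differences of 1.44, 1.42 and 1.13, and only Foxm1, a transcription factor of mitotic genes, was without overlap.

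Aurora B, encoded by Aurkb, corrects faulty spindle attachments, and survivin, encoded by Birc5, belongs to the same complex. Aurkb measured 4.34, 5.20 and 4.16 FPKM in the wild-type spleens, which lay close together, and 7.48, 10.4, 43.5 and 21.9 FPKM in the plckGAPDH spleens. No plckGAPDH spleen reached down to the wild-type range, and the difference was 1.68 (SE 0.52, limma FDR 0.235). Birc5 stood at 5.72, 9.47 and 6.78 FPKM against 6.38, 14.5, 48.2 and 34.4 FPKM. Here spleen 343 lay inside the wild-type range, and the difference of 1.37 (SE 0.58) had a limma FDR of 0.502. Aurka, the kinase of the spindle poles, had a difference of 1.13 with 3 of 4 plckGAPDH spleens above every wild-type spleen.

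In the spindle checkpoint, 4 of 4 genes had positive differences, with a median of 1.22, and 3 had an unadjusted p under 0.05. Mad2l1, which encodes the inhibitor Mad2, measured 7.29, 7.24 and 8.50 FPKM in wild-type and 15.0, 11.1, 28.9 and 23.3 FPKM in plckGAPDH spleens. It had no overlap and was higher in spleen 343 than in spleen 508, with a difference of 1.16 (SE 0.40, limma FDR 0.327). The kinase gene Ttk, also without overlap, was 11.3 times the wild-type mean in spleen 547, at 11.5 FPKM. Bub1 and Bub1b, which encode a checkpoint kinase and its relative BubR1, reached 14.4 and 33.2 FPKM in spleen 547. Spleen 343 lay within the wild-type range for each, and for Bub1 so did spleen 508, at 4.41 FPKM.

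Among the 6 genes of centromere and kinetochore, the differences ran from 0.77 (Cenpa) to 1.51 (Cenpe), and 3 had no overlap. Cenpe, a kinesin of the kinetochore, measured 2.41, 2.87 and 0.920 FPKM in wild-type and 3.53, 4.41, 15.3 and 11.1 FPKM in plckGAPDH spleens, without overlap (SE 0.49, limma FDR 0.264). Cenpf, a large kinetochore protein, measured 1.39, 2.33 and 0.700 FPKM against 2.41, 3.25, 13.2 and 8.28 FPKM. Spleen 343 cleared wild-type spleen 4 only narrowly, and the Cenpf difference was 1.47 (SE 0.50, limma FDR 0.302).

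Cenpa, the histone variant that marks centromeres, had the smallest difference of the role. Its levels were 10.1, 8.54 and 16.8 FPKM in wild-type spleens and 7.89, 14.2, 45.8 and 30.4 FPKM in plckGAPDH spleens. Spleen 343 was the lowest of the 7 and wild-type spleen 5 lay above spleen 508, so only spleen 547 and the unnumbered spleen stood clear. That difference was 0.77 (SE 0.55, limma FDR 0.834), and it was -0.09 with those 2 spleens left out. Ndc80, Nuf2 and Spc25, subunits of the complex that grips microtubules, had differences of 0.78, 1.30 and 1.03, and only Spc25 was without overlap.

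The 8 kinesin motors had differences from 0.75 (Kif20b) to 1.65 (Kif11), with a median of 1.32. Kif11, which pushes spindle poles apart, stood at 4.04, 7.40 and 3.87 FPKM in wild-type and 6.62, 10.8, 45.3 and 27.7 FPKM in plckGAPDH spleens. Wild-type spleen 4 lay above spleen 343, so the groups overlapped, and the difference of 1.65 (SE 0.57) had a limma FDR of 0.324. Kif4, a chromosome-bound kinesin, measured 1.15, 2.69 and 1.22 FPKM against 2.71, 5.47, 15.3 and 9.39 FPKM. Its groups were separated only narrowly, between wild-type spleen 4 and spleen 343, and the difference was 1.62 (SE 0.49, limma FDR 0.204). The copy Kif4-ps was listed at no more than 0.160 FPKM. Kif18b and Kif2c, which shorten microtubules, were the other kinesins without overlap. Kif20b and Kif23, which act late in division, had the smallest differences of the role, at 0.75 and 0.82, and unadjusted p of 0.0992 and 0.0824 in limma.

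All 5 spindle assembly factors had an unadjusted p under 0.05 and differences from 1.19 to 1.62. Tpx2, which activates aurora A on the spindle, stood at 2.83, 5.13 and 2.26 FPKM in wild-type and 5.66, 7.34, 25.4 and 19.0 FPKM in plckGAPDH spleens, without overlap. Its difference was 1.62 (SE 0.51, limma FDR 0.237). Prc1, which bundles the microtubules of the central spindle, measured 4.89, 8.22 and 3.86 FPKM against 10.3, 10.3, 31.8 and 22.9 FPKM. Spleens 343 and 508 were level for Prc1 and above every wild-type spleen, and the difference was 1.47 (SE 0.47, limma FDR 0.242). Nusap1, a microtubule-binding protein and the most abundant of the role over all libraries, measured 4.25, 8.23 and 9.14 FPKM in wild-type and 8.86, 11.5, 32.0 and 24.5 FPKM in plckGAPDH spleens. Wild-type spleen 5 overlapped spleen 343, and the difference was 1.19 (SE 0.48, limma FDR 0.462). Hmmr and Aspm, 2 further microtubule-associated proteins of the spindle, had differences of 1.43 and 1.31.

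**Figure D4:**
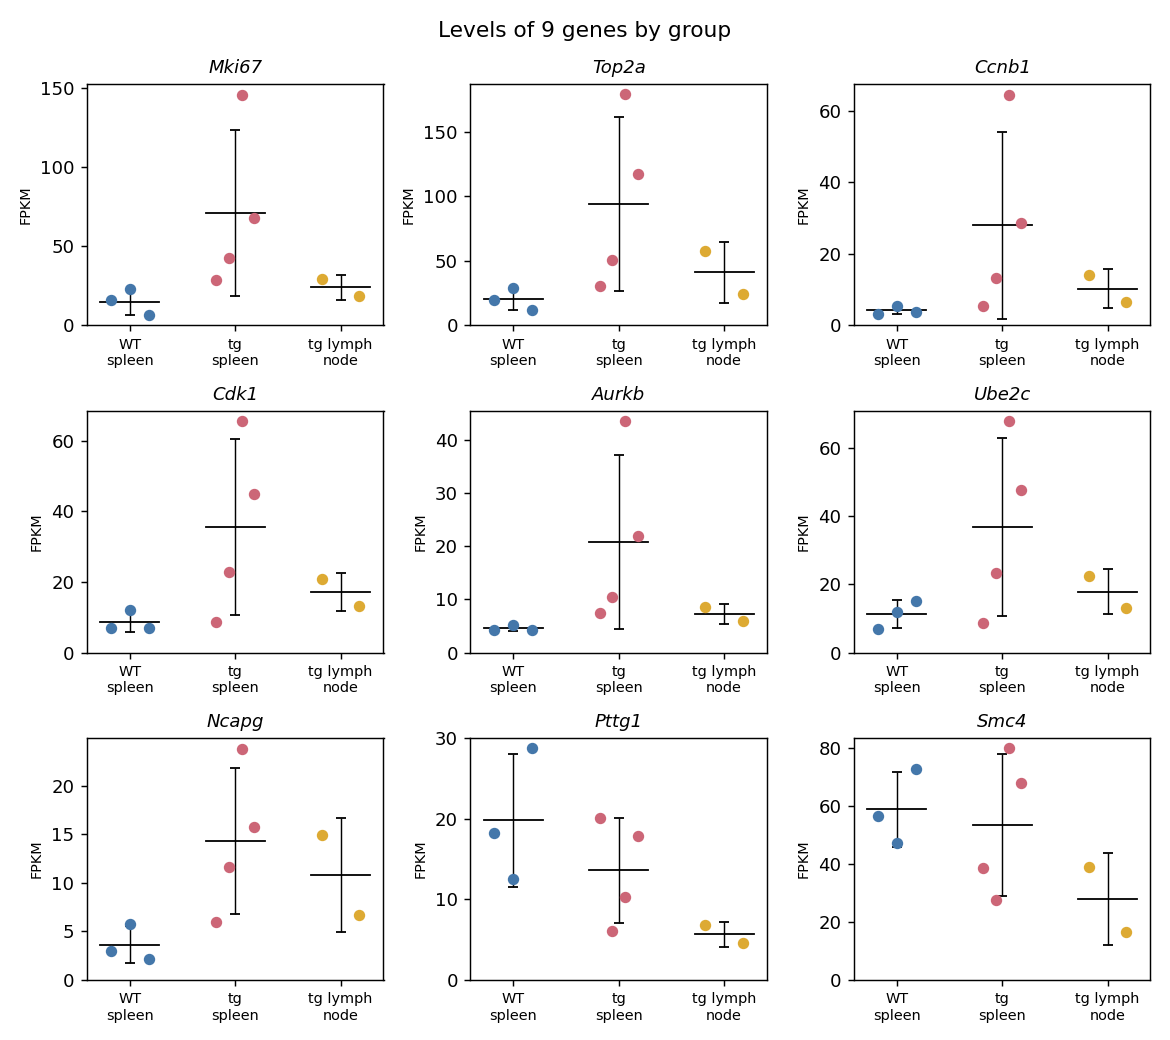
FPKM of 9 of the genes in each library, grouped as wild-type (WT) spleen, plckGAPDH (tg) spleen and plckGAPDH lymph node. Points are libraries, the long bar is the group mean and the error bar is the SD over 3, 4 and 2 libraries. The highest point is spleen 547 for every gene shown except Pttg1, whose highest point is wild-type spleen 5 at 28.8 FPKM.

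Of the 4 genes of anaphase, 3 had positive differences. Ube2c, the ubiquitin-conjugating enzyme of APC/C, measured 6.82, 12 and 15.2 FPKM in wild-type and 8.74, 23.3, 67.9 and 47.6 FPKM in plckGAPDH spleens. Spleen 343 lay below 2 wild-type spleens, and the difference of 1.34 (SE 0.61) had a limma FDR of 0.550. Cdc20 had a difference of 1.54, and Espl1, the separase gene, was 14.4 times the wild-type mean in spleen 547 at 10.6 FPKM. Pttg1, which encodes securin, the inhibitor of separase, stood at 18.2, 12.5 and 28.8 FPKM in wild-type and 20.1, 6.06, 10.3 and 17.9 FPKM in plckGAPDH spleens. It was the only 1 of the 46 genes for which spleen 547 lay below every wild-type spleen, and the only one whose highest library was a wild-type spleen. The groups overlapped, and the Pttg1 difference of -0.57 (SE 0.47, 95% interval -1.59 to 0.46) had a limma FDR of 0.887. Pttg1, Ccnb1, Ttk and Espl1 were picked for mention after their values were seen.

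Condensin, the complex that compacts chromosomes, held genes with differences of both signs. Ncapg, a subunit of condensin I, stood at 2.97, 5.76 and 2.13 FPKM in wild-type and 5.91, 11.6, 23.8 and 15.7 FPKM in plckGAPDH spleens. Its groups did not overlap, and its difference of 1.65 (SE 0.47, limma FDR 0.172) had the second-lowest FDR of the set. Ncaph, another condensin I subunit, measured 2.85, 4.16 and 3.02 FPKM against 5.59, 6.73, 20.7 and 18.1 FPKM, also without overlap, with a difference of 1.48 (SE 0.47, limma FDR 0.242).

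Smc2 and Smc4 are the ATPase pair that all condensin complexes share. Smc4 measured 56.5, 47.1 and 72.6 FPKM in wild-type and 38.5, 27.6, 79.9 and 67.8 FPKM in plckGAPDH spleens. Spleens 343 and 508 lay below every wild-type spleen and only spleen 547 lay above, and the difference of -0.23 (SE 0.46) had a limma FDR of 0.983. The sign of Smc4 turned with the setting: it was 0.04 without spleen 508. Smc4 made up 21.6%, 14.0% and 25.4% of the summed FPKM of the 46 genes in the wild-type spleens and 5.30% to 11.2% in the plckGAPDH spleens. Smc2 had a difference of 0.67 (SE 0.47), with spleen 547 and the unnumbered spleen at 25.4 and 21.2 FPKM above the highest wild-type spleen at 12.9 FPKM.

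In cytokinesis, Racgap1, part of the centralspindlin complex, stood at 10.7, 13.8 and 9.42 FPKM in wild-type and 21.1, 13.2, 56.4 and 31.0 FPKM in plckGAPDH spleens. Spleen 508, not spleen 343, was the one inside the wild-type range, and the difference was 1.18 (SE 0.48, limma FDR 0.460). Ect2, the exchange factor that Racgap1 recruits, ran from 1.54 to 4.20 FPKM in wild-type and 2.62 to 7.83 FPKM in plckGAPDH spleens, with a difference of 0.74.

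The 2 lymph nodes lay apart from each other. Their labels differ beyond the animal number (455_MES and 508_LN), and whether they came from the same site was not settled here. Lymph node 455 lay above lymph node 508 for 45 of 46 genes, the exception being Cenpa at 7.79 and 11.7 FPKM. Lymph node 455 lay above every wild-type spleen for 42 of 46 genes, against 11.3% of all genes, and lymph node 508 for 11 of 46, against 7.91%. The median fold over the wild-type spleen mean was 2.39 in lymph node 455 and 1.09 in lymph node 508. This sets a lymph node against spleens, since no wild-type node was analysed here. Lymph node 455 lay below both spleen 547 and the unnumbered spleen for all 46 genes. The count for lymph node 455 was 43, 34 and 43 under the 3 scalings, beside 31.0%, 16.5% and 28.3% of all genes. That for lymph node 508 was 37, 0 and 15, beside 36.8%, 1.78% and 18.8%, so its place relative to wild-type spleens depended on the scaling.

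Against the plckGAPDH spleens, the lymph nodes had lower values for all 46 genes, as had 89.1% of the 13682 genes tested. The median difference was -0.83 on the log2 scale, beside -0.59 over all genes. In limma 0 of 46 passed an FDR of 0.05 (0.0146% of all genes were called), with 0.359 as the lowest FDR, and an unadjusted p under 0.05 with a lower level was found for Mad2l1 alone, against 10.7% of all genes. Mad2l1 stood at 10.7 FPKM in lymph node 455 and 6.47 FPKM in lymph node 508, and its difference was -1.05 (SE 0.43, limma FDR 0.359). With median-of-ratios scaling the median over the 46 genes was -0.18, beside -0.01 over all genes. It was -0.34, beside -0.44, without lymph node 508, and -0.46, beside -0.49, without spleen 547, so in those fits the 46 genes were no lower than all genes. Mki67, at 29.7 and 18.6 FPKM in lymph nodes 455 and 508, had the most negative difference, -1.29 (SE 0.65, limma FDR 0.359).

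Within animal 508 the spleen lay above the lymph node for 46 of 46 genes, where 85.8% of all genes did. The median fold of the 46 genes was 1.79. Over all genes it was 1.29, but that fold was taken after adding 1 FPKM to both levels. The addition pulls low genes toward 1, so the 2 medians are not like measures. Kif4 had a fold of 2.67 and Cenpa of 1.21. With median-of-ratios scaling the count was 38 of 46, with scaling outside mitochondrial, immunoglobulin and globin genes 46, and with protein-coding scaling 42. The share of all genes under these scalings was not computed, so these 3 counts have no background beside them. There is 1 such pair of libraries, so the difference between the tissues of this animal has no replicate check.

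Other genes of the cell cycle were examined as lists. Of 66 tested genes of a second mitotic list (67 in the table), 0 passed the limma FDR (all genes: 0.206% higher, 1.23% lower). An unadjusted limma p under 0.05 with a higher level in plckGAPDH spleens was found for 39, against 4.18% of all genes. A positive difference was found for 65, against 51.6% of all genes. The median of the 66 tested genes was 1.01. Of the 67 in the table, 27 were without overlap, against 3.39% of all genes tested. The untested gene Troap was among those 27. Mastl, Ska1, Ska3, Trip13 and Fam64a reached 1 FPKM in no wild-type spleen, so they entered the test through the plckGAPDH spleens alone. Sapcd2, a spindle orientation factor, stood at 0.480, 1.17 and 0.570 FPKM in wild-type and 1.92, 3.77, 8.69 and 4.88 FPKM in plckGAPDH spleens, with a difference of 1.63 (SE 0.41) and a limma FDR of 0.101. Kifc1, a minus-end kinesin, and Cdca2, a chromatin-bound phosphatase regulator, had differences of 1.49 and 1.31. Of the 16 genes of the APC/C core and its close partners, 0 had an unadjusted limma p under 0.05, which 1116 of all 12607 genes had. Their median was 0.25, and 0 were without overlap, against 3.39% of all genes above and 3.88% below. Anapc5, Fzr1 and Ube2s, those with the lowest p, had differences of 0.78, 0.68 and 0.77.

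Genes that carry cells from G1 into S phase were set beside the mitotic genes. Of 27 tested, 25 were positive, against 51.6% of all genes, and the median was 0.81, beside 0.02. For 7 there was no overlap, against 3.39% of all genes. An unadjusted limma p under 0.05 with a higher level was found for 8, against 4.18%. Uhrf1, which maintains DNA methylation at replication, had a difference of 1.63 (SE 0.44, limma FDR 0.143), Tk1, a thymidine kinase, 1.31, and Cdc45, a helicase subunit, 1.37. Ccnd1, cyclin D1, was the 1 gene of the list with an unadjusted p under 0.05 and a lower level, at -1.32 (SE 0.53, limma FDR 0.442). The ratio of the summed mitotic genes to the summed G1 to S genes was 0.810, 1.12 and 0.766 in the wild-type spleens and 0.946, 1.20, 1.41 and 1.41 in the plckGAPDH spleens. It was 1.36 in lymph node 455 and 1.17 in lymph node 508. This ratio does not depend on the scaling of a library. Spleen 343 lay below wild-type spleen 4 and the other 5 plckGAPDH libraries lay above every wild-type spleen, also without Smc4 and Pttg1, where the wild-type values were 0.578, 0.925 and 0.495 and the plckGAPDH spleens gave 0.785, 1.12, 1.32 and 1.29.

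**Figure D5:**
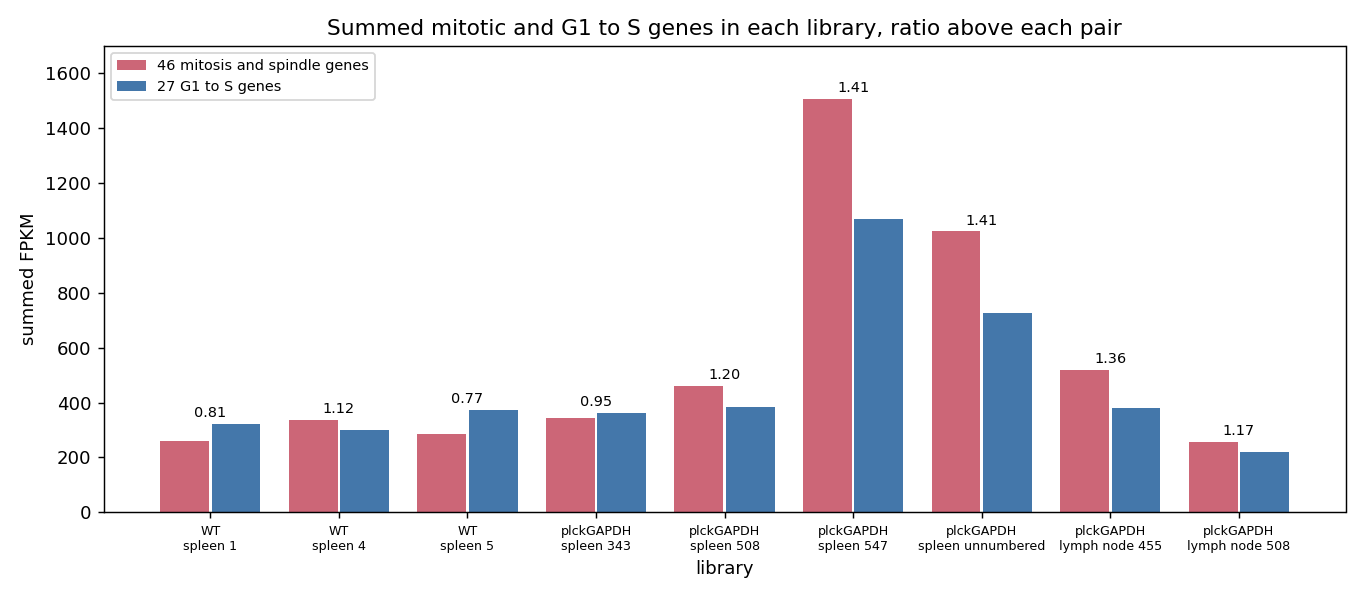
Summed FPKM of the 46 mitosis and spindle genes and of the 27 G1 to S genes in each library, with their ratio printed above each pair of bars. The mitotic sum reaches 1508 FPKM in spleen 547 and 1024 FPKM in the unnumbered spleen. The ratio is 1.41 in both of them and 0.766 to 1.12 in wild-type spleens.

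Regulators of these genes were examined last. Of 10 activators of mitotic transcription, 9 had a positive difference, against 51.6% of all genes. With a higher level, 2 had an unadjusted limma p under 0.05, against 4.18% of all genes. These were Mybl2, with 1.18 (SE 0.48, limma FDR 0.454), and Foxm1, which is also 1 of the 46 genes. E2f1 had 0.63. Of 19 tested inhibitors of cyclin-dependent kinases and DREAM subunits, 12 were positive with a median of 0.05, beside 51.6% and 0.02 over all genes. Tfdp1, the E2F dimer partner, had a difference of 1.27, and Wee1, the kinase that holds Cdk1 inactive, of 1.22. Cdkn2a, which encodes the inhibitors p16 and p19Arf, stood at 0.260, 0.950 and 0.160 FPKM in wild-type and at 1.44, 16.9, 1.84 and 3.90 FPKM in plckGAPDH spleens, with a difference of 1.81 (SE 0.59, limma FDR 0.262). Neither Cdkn2a nor E2f1 reached 1 FPKM in a wild-type spleen, so both entered the test through the plckGAPDH spleens alone.

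Markers of other cell types also differed between these libraries. The summed erythroid precursor markers (11 in the table, with 3 of them at 0 in some libraries) were 56.0, 10.7 and 45314 FPKM in the wild-type and 251, 24.4, 1402 and 154 FPKM in the plckGAPDH spleens. Spleen 547 had the highest Klf1, the erythroid master factor, at 5.78 FPKM against 0.910 or less elsewhere, and the highest Epor, the erythropoietin receptor, at 3.71 FPKM. Klf1 was listed at 0 in lymph node 455. The 8 T cell markers summed to 411 to 688 FPKM in wild-type spleens and to 337, 151, 225 and 1170 FPKM in plckGAPDH spleens, so the unnumbered spleen alone exceeded the wild-type range. The 8 germinal centre B cell markers summed to 28.4 to 81.4 FPKM in wild-type and 99.9, 71.7, 92.7 and 92.8 FPKM in plckGAPDH spleens. The 7 plasma cell markers summed to 4481 FPKM in spleen 508, 2613 and 2371 FPKM in the lymph nodes, and 80.1 to 376 FPKM elsewhere. Jchain alone held 3472 FPKM of the sum in spleen 508 and 18.8 FPKM in spleen 547. By count, 0, 7, 6 and 2 of the 7 lay above every wild-type spleen in the plckGAPDH spleens, beside 16.4%, 14.1%, 45.8% and 33.4% of all genes. The 10 neutrophil markers ranged from 5.02 FPKM in wild-type spleen 4 to 3398 FPKM in wild-type spleen 1. The 6 NK cell markers summed to 77.0, 79.6 and 209 FPKM in wild-type and 33.8, 4.80, 30.0 and 60.1 FPKM in plckGAPDH spleens. All 6 had negative differences and 2 were called lower, against 1.23% of all genes. The 2 were Gzma, a granule protease, and Klrd1, a receptor chain, with differences of -3.04 (SE 0.65, limma FDR 0.0404) and -2.80 (SE 0.62, limma FDR 0.0486). Prf1 and Eomes overlapped between the genotypes, with differences of -0.11 (limma FDR 0.996) and -0.71 (limma FDR 0.941). In a list of 7 stromal and follicular dendritic cell genes, 3 passed the filter, and 2 of these were called lower, against 1.23% of all genes. They were Cr2 and Fcer2a, which mature B cells also express, with differences of -5.44 (SE 0.75, limma FDR 0.00169) and -4.05 (SE 0.73, limma FDR 0.0136). The third, Ccl19, went the other way, with a difference of 0.75 (SE 0.40, limma FDR 0.681). The 8 pan-B markers, 7 of them with negative differences, summed to 1779, 417 and 1804 FPKM in wild-type and 1157, 592, 1186 and 762 FPKM in plckGAPDH spleens. The part of each of these cell types in the mitotic differences was not tested.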

How the data were processed

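The authors deposited 1 table of FPKM (fragments scaled by gene length and library size) for 46517 genes, rounded to 2 decimals. Per the labels' protocols, libraries were made from 500 ng of total RNA of splenocytes with a stranded total RNA kit and read as pairs of 75 bases. The submitters' processing notes name build mm10, STAR 2.4.0a, Subread 1.5.0-p3 (featureCounts), RSEM and Bowtie2 2.2.6; the tool behind the FPKM is not stated in them.

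Differences were tested with limma 3.58.1 in R 4.3.3 (lmFit, eBayes with an intensity trend) on log2(FPKM + 1), fitted over all genes at 1 FPKM in at least 3 of the 7 spleens, and with Benjamini-Hochberg adjustment over all of them. A second fit, over all 9 libraries and genes at 1 FPKM in 2 of them, set lymph nodes against plckGAPDH spleens. Because the table holds no counts, no count model was used. Depth was estimated from FPKM under 0.2 of genes of 400 to 1500 bases, which lay at whole fragments within 0.0055 FPKM for 79.6% to 85.3% of values, against 19.6% to 26.7% by chance. At most 0.257% of values were identical in any of the 36 pairs of libraries.

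Members and lists were chosen with earlier results of these data known. Members given in every spleen were those called, up to 12 without overlap by smallest p, and the highest of each role; other lists give up to 3 genes by smallest p. Promoters came from RefSeq (GRCm38.p6). Alternatives covered the pseudocount (0.1), the filter, 3 scalings, sample quality weights, the trend, the libraries in the fit, and leaving out libraries.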

Additional observations from a re-analysis of the deposited data

Results flagged for a closer look

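In 78 values examined over the 4 plckGAPDH spleens, 3 had 1 library far from the other 3 relative to the whole range. The values were each of the 46 genes, their sum, the genes named from other lists and the sums of lists. Chance gives about 1 in 20, so 3 is no more than chance would give, and the values are not independent. Cdkn2a stood at 16.9 FPKM in spleen 508 and at 18.7 FPKM in lymph node 508 of the same animal, against 1.44 to 3.90 FPKM in the other plckGAPDH spleens. The plasma cell markers summed to 4481 FPKM in spleen 508. The erythroid precursor markers summed to 1402 FPKM in spleen 547. None of the 46 mitotic genes was among the 3.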

How the results depend on the processing

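No member was called between the spleens under any alternative except sample quality weights and the fit without spleen 343. Quality weights called 44 of 46, beside 14.8% of all genes, with wild-type spleen 1 weighted 24.8 and the others 0.296 to 2.04. Leaving out 1 spleen at a time gave 0 to 8 called members, 8 being without spleen 343, beside 2.16% of all genes. The number of members without overlap was 20, became 10 with median-of-ratios scaling, 0 with scaling outside mitochondrial, immunoglobulin and globin genes, 17 with protein-coding scaling and 40 without wild-type spleens 4 and 5. The shares of all genes in these settings were 3.39%, 6.11%, 1.15%, 6.06% and 9.97%. With 1 spleen left out the number ran from 20 to 35, and the share of all genes from 3.89% to 8.04%. The median difference of 1.32 ran from 0.99 to 1.69 with 1 spleen left out and was 0.52 without spleen 547 and the unnumbered spleen. Scalings to protein-coding genes and the fits without pairs of spleens were chosen after seeing the data. Of 605 values of the 21 named members under alternatives, 564 kept direction and side of the threshold, 25 newly passed it and 16 changed sign. Smc4 between spleens was 0.02 with quality weights and ran from -0.46 to 0.04 with 1 spleen left out. Cenpa was -0.09 without spleen 547 and the unnumbered spleen. In the lymph node comparison, median-of-ratios scaling gave Ncapg 0.39, Melk 0.09, Cenpe 0.36, Cdc25c 0.10, Cdk1 0.03, Birc5 0.21 and Ube2c 0.04, and protein-coding scaling gave Ncapg 0.21, Cenpe 0.19 and Birc5 0.02. With 1 library left out, Ncapg ran from -0.85 to 0.21 and Cenpe from -0.87 to 0.25 there, and Cenpe was 0.01 without spleen 547. The lymph node median of -0.83 ran from -1.26 to -0.34 in these fits, where a lone lymph node is assumed to vary like the other groups. The cause of these shifts was not tested. No paired analysis was possible because the spleens of the 2 genotypes share no animal number and only animal 508 gave both tissues. Levels under 1 FPKM, as for Cdc25c, rest on few fragments.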
